A study of Mus musculus with 2 samples.

Results

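The genes described here encode the proteins of the mitochondrial ribosome. They were taken as every gene whose name on the array begins with Mrps or Mrpl followed by a digit, the names of the small and the large subunit. This gave 75 genes, 29 of the small and 46 of the large subunit, measured by 126 probes, out of 27845 gene names on the array. All 75 were among the 18217 genes tested, with 1 probe standing for each, the brightest one that passed the filter on dim probes. Those 75 probes were well above background in both colours on both arrays, with no saturated spot, and 119 of the 126 probes passed the filter.

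Mitochondria carry ribosomes of their own, which translate the few hydrophobic subunits of the respiratory chain that mitochondrial DNA still encodes. The ribosomal RNAs come from mitochondrial DNA, while every protein of the particle is encoded in the nucleus, made in the cytosol and imported. Skeletal muscle depends heavily on oxidative metabolism, and myoblasts build up mitochondria as they differentiate.

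RNA was compared between control and Mybbp1a knockdown cells of C2C12, an established myoblast line that the labels trace to leg muscle of an adult C3H mouse. Mybbp1a is a nucleolar protein known to take part in ribosomal RNA production and to bind transcription factors and coactivators, PGC-1alpha among them. Cells of both groups were mixed stable clones that expressed a short hairpin RNA, either a control hairpin or one against Mybbp1a, and grew below confluence in growth medium with fetal bovine serum. Total RNA of the knockdown was labelled with Cy5 and that of the control with Cy3 on each of 2 arrays, named biological replicates 1 and 2. There was no dye swap, so a dye bias left by normalization and an effect of the knockdown cannot be told apart. Each array also lay on its own slide, and slide and replicate cannot be told apart. Separate cultures or clone pools are not stated for them. The p-values therefore measure no spread beyond that between these 2 arrays, which may be technical. In the limma fit the variance of a gene is also moderated by that of all tested genes. Its p therefore does not follow the SD of that gene alone.

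For 15 of the 75 genes the file's coordinates of the probe cover more than its 60 bases, so the probe crosses at least 1 intron and reads spliced RNA. Probes of this kind are shown for 3 of the lowest genes, since the ratios of these genes rest on hybridization to exactly these letters, written 5′ to 3′. On build mm8 the Mrps18b probe spans 149 bp at chr17:35522421-35522569 (minus strand), the Mrpl46 probe 848 bp at chr7:78654120-78654967 (minus strand) and the Mrps18c probe 919 bp at chr5:101043401-101044319 (plus strand).
Mrps18b: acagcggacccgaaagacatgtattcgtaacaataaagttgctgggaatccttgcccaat
Mrpl46: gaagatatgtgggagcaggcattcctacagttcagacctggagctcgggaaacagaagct
Mrps18c: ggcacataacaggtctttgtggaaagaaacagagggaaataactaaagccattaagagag
Their GC content was 45.0%, 51.7% and 40.0%.

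The targeted gene was lower in the cells labelled knockdown. Mybbp1a had a log2 ratio of knockdown over control of -1.64 and -1.91 on arrays 1 and 2. The mean was -1.78 ± 0.19 (SD, n = 2), 3.42-fold lower, with an adjusted p of 0.175 from limma. Under median centring, described below, it was -1.5 with an adjusted p of 0.0258 in limma. Of the 6 myoblast markers Myod1, Myf5, Des, Cdh15, Cdh2 and Ncam1, 6 were well above background in the control on both arrays. Of the leukocyte markers, Cd68, Cd14 and Csf1r were above background and Ptprc was not. Of the 3 endothelial markers, Kdr was above background in the control and Pecam1 and Cdh5 were not, while 2 were above background in the knockdown. Of the 3 adipocyte markers, 2 were on the array and 0 were above background. Median spot signal was 329 and 449 in Cy5 and 159 and 184 in Cy3 on arrays 1 and 2. Between 64.9% and 79.7% of the spots of an array were well above background in a colour. The number of arrays limits the precision. With 2 arrays the fit has 1 residual degree of freedom, and no gene of the 18217 tested passed an adjusted p of 0.05 in limma (0% called). At an unadjusted p of 0.05, 2445 were above 0 and 1363 below.

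The mitochondrial ribosomal protein genes stood together within a narrow range close to 0, and the side of 0 depended on the normalization. After loess normalization, which removes the dependence of the ratio on brightness within each array, their median log2 ratio was -0.16, against 0.03 for all tested genes, but it was 0.17 against 0.21 when each array was only centred on its median. With that centring the members lay above all tested genes on array 1 (0.32 against 0.23) and below them on array 2 (0.02 against 0.20). The shift was small for each gene, with means from -0.45 to 0.17. It was shared across the list: 48 of 75 genes (64.0%) were below 0 on both arrays, against 29.4% of all tested genes, and 8 (10.7%) were above 0 on both, against 40.5%. The signs were opposite for 19, against 30.1%. Under median centring those counts were 2 below and 43 above, against 12.2% and 65.3% of all tested genes. In bulk RNA, fewer cells of a type and less RNA per cell cannot be told apart.

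None of the 75 passed an adjusted p of 0.05 in limma, where adjusted p ran from 0.183 to 0.999. At an unadjusted p of 0.05, 10 genes were below 0, against 7.48% of all tested genes, and 0 were above 0, against 13.4%. The 10 were Mrps18b of the small subunit and Mrpl11, Mrpl12, Mrpl15, Mrpl18, Mrpl19, Mrpl36, Mrpl37, Mrpl46 and Mrpl51 of the large subunit, named after their values were seen where they fall outside the naming rule. Under median centring the limma fit called 8 of the 75 past an adjusted p of 0.05, and all 8 were above 0. These were Mrpl13, Mrpl14, Mrpl23, Mrpl33, Mrpl43, Mrps16, Mrps24 and Mrps33, and 17.5% of all tested genes were called in that fit, 3127 above 0 and 61 below. No call was made with the scanner's processed signals, the deposited value table, either other filter or the mean over probes.

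The list sat lower on array 2 than on array 1. Its median was -0.09 on array 1, where 53 genes (70.7%) were below 0, and -0.25 on array 2, where 62 (82.7%) were. The median of all tested genes was 0.03 on each array. The ratios of the 75 genes spread less than those of all genes, with an SD across genes of 0.15 and 0.20 on arrays 1 and 2, against 0.31 and 0.43. Related lists described below also spread less than all genes. The SD was 0.18 and 0.19 for mitochondrial translation factors, 0.20 and 0.26 for oxidative phosphorylation subunits and 0.24 and 0.24 for cytosolic ribosomal proteins. No member differed by 1.5-fold in 1 direction on both arrays, which 2.95% of all tested genes did. The ratio was under 0.6 in size on both arrays for 75 of 75, against 86.9% of all tested genes. The ratios on the 2 arrays had a Pearson's r of 0.58 and a Spearman's rho of 0.60 across the 75 genes, and r was 0.53 across all tested genes. This is a description, since genes on 1 array share its dyes and its normalization.

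**Figure D1:**
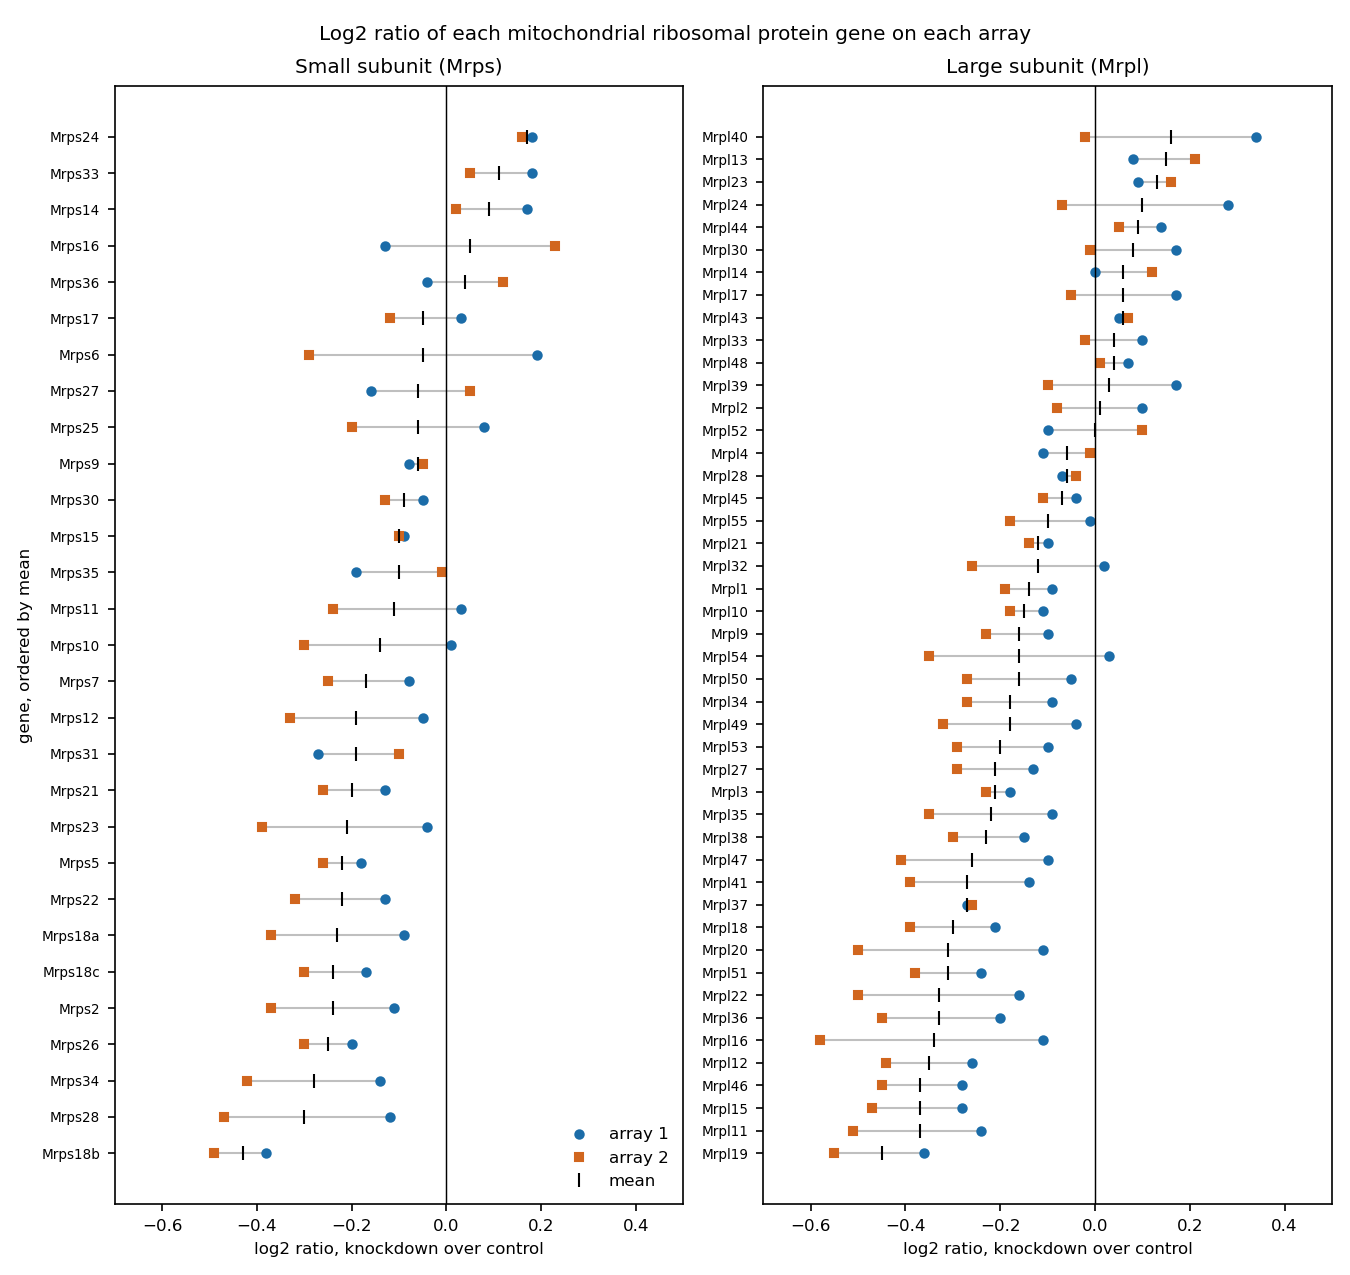
Log2 ratio of knockdown over control after loess normalization for each of the 29 small-subunit genes and the 46 large-subunit genes, ordered by mean; circles are array 1, squares array 2 and vertical ticks their mean. Means run from -0.45 for Mrpl19 to 0.17 for Mrps24 and most points of both arrays lie below 0, which turns under median centring, where 43 of the 75 genes were above 0 on both arrays.

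**Figure D2:**
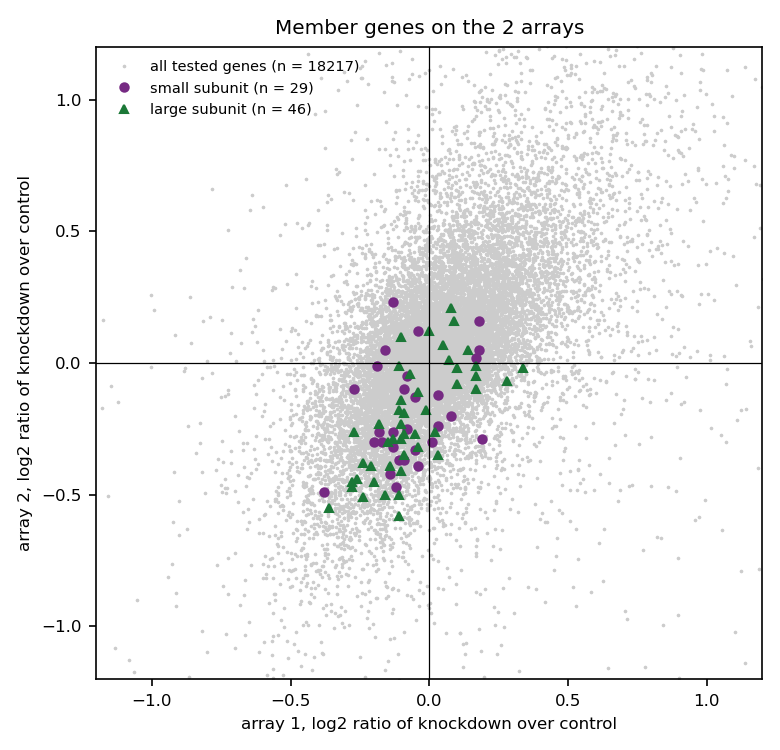
Log2 ratio on array 1 (x axis) against array 2 (y axis) after loess normalization for all 18217 tested genes (grey dots) and for the small-subunit and large-subunit genes. Of the 75 genes, 48 lie at the lower left, 8 at the upper right and 19 have opposite signs; under median centring 2 and 43 were below and above 0 on both arrays.

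The small subunit binds messenger RNA and reads its codons. Its 29 genes had a median log2 ratio of -0.14 (-0.09 and -0.25 on arrays 1 and 2), and 0.16 under median centring. Of these genes, 18 (62.1%) were below 0 on both arrays, 3 (10.3%) were above 0 on both and 8 had opposite signs.

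Mrps18b had the lowest mean of the small subunit. It is 1 of 3 related proteins, with Mrps18a and Mrps18c, that derive from the bacterial protein S18. Its normalized log2 signal was 9.99 and 9.76 in the knockdown and 10.37 and 10.24 in the control on arrays 1 and 2. Both knockdown readings were below both control readings. The log2 ratios were -0.38 and -0.49, a mean of -0.43 ± 0.08 (SD, n = 2), 1.35-fold lower, with an adjusted p of 0.183 in limma. Another tested, dimmer probe of Mrps18b read -0.09 and -0.30, and the mean over probes was -0.31. Mrps18b stayed below 0 under median centring, at -0.18. The related gene Mrps18c had ratios of -0.17 and -0.30, a mean of -0.24 ± 0.09 (SD, n = 2) with an adjusted p of 0.261 in limma, and 0.13 under median centring. Mrps18a had ratios of -0.09 and -0.37, and 0.31 and -0.10 under median centring.

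The other 4 of the 6 lowest small-subunit genes were all lower on array 2 than on array 1. Mrps28 had ratios of -0.12 and -0.47 on arrays 1 and 2, a mean of -0.30 ± 0.25 (SD, n = 2). Its signal was 14.45 and 14.18 in the knockdown and 14.57 and 14.65 in the control, with no overlap. Mrps34, a protein known to be needed for the stability of the small subunit, had ratios of -0.14 and -0.42, a mean of -0.28 ± 0.20 (SD, n = 2). Mrps26, which has no bacterial counterpart, had ratios of -0.20 and -0.30, a mean of -0.25 ± 0.07 (SD, n = 2). Mrps2, the counterpart of bacterial S2, had ratios of -0.11 and -0.37, a mean of -0.24 ± 0.18 (SD, n = 2). Both other tested probes of Mrps2 had a mean of 0.01, and its mean over probes was -0.08. The adjusted p of these 4 genes in limma was 0.290, 0.274, 0.239 and 0.312. Under median centring all 4 lay above 0, at 0.08, 0.11, 0.09 and 0.03.

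The small-subunit genes at the other end were near 0 or slightly above it after loess. Mrps24, which lies near the path by which messenger RNA enters the small subunit, had the highest mean of all 75 genes. Its signal was 14.38 and 13.98 in the knockdown and 14.20 and 13.82 in the control, and the groups overlapped across the arrays. Its ratios of 0.18 and 0.16 gave a mean of 0.17 ± 0.01 (SD, n = 2), 1.13-fold higher, with an adjusted p of 0.330 in limma. Mrps33 had ratios of 0.18 and 0.05, and Mrps14 had ratios of 0.17 and 0.02. Median centring put Mrps24, Mrps33 and Mrps14 at 0.53, 0.56 and 0.38, and the median of all tested genes at 0.21. Mrps9, Mrps30 and Mrps15 came next among the genes of 1 sign, with means of -0.06, -0.09 and -0.10, and 0.23, 0.23 and 0.25 under median centring. Mrps6 stood out for the gap between arrays, with 0.19 on array 1 and -0.29 on array 2, and its other probe gave 0.24 and -0.27. Mrps16 went the other way, with -0.13 and 0.23. No member had opposite signs with at least 0.4 on each array.

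The large subunit holds the catalytic centre that joins amino acids and the tunnel through which the new chain leaves. Its 46 genes had a median log2 ratio of -0.16 (-0.10 and -0.25 on arrays 1 and 2), and 0.17 under median centring. Of these, 30 (65.2%) were below 0 on both arrays, 5 (10.9%) were above 0 on both and 11 had opposite signs.

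Mrpl19, the counterpart of bacterial L19, had the lowest mean of all 75 genes. Its signal was 12.82 and 12.28 in the knockdown and 13.18 and 12.83 in the control, so the highest knockdown reading was just below the lowest control reading. The ratios of -0.36 and -0.55 gave a mean of -0.45 ± 0.13 (SD, n = 2), 1.37-fold lower, with an adjusted p of 0.183 in limma. Under median centring it was -0.15.

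The next large-subunit genes in the order were Mrpl11, Mrpl15, Mrpl46, Mrpl12 and Mrpl16. Mrpl11, whose bacterial counterpart forms the base on which translation factors dock, had signals of 14.60 and 14.34 in the knockdown and 14.84 and 14.85 in the control. Its ratios were -0.24 and -0.51, a mean of -0.37 ± 0.19 (SD, n = 2). Mrpl12, the protein of the flexible stalk that recruits those factors, had signals of 14.75 and 14.44 in the knockdown and 15.01 and 14.88 in the control. Its ratios were -0.26 and -0.44, a mean of -0.35 ± 0.13 (SD, n = 2). For both genes the knockdown readings lay below the control readings. Their adjusted p in limma was 0.212 and 0.205, and under median centring they lay just above 0, at 0.02 and 0.06. Mrpl10, which anchors the stalk, had ratios of -0.11 and -0.18, a mean of -0.15 near the median of the list.

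Among the rest of the 6 lowest, Mrpl15, the counterpart of bacterial L15, had ratios of -0.28 and -0.47, a mean of -0.37 ± 0.13 (SD, n = 2). Its knockdown and control readings overlapped across the arrays, at 13.16 and 12.62 against 13.43 and 13.09. Another, dimmer probe of Mrpl15 read 0.16 and -0.21, and the mean over probes was -0.20. Mrpl46, which has no bacterial counterpart, had ratios of -0.28 and -0.45, a mean of -0.37 ± 0.12 (SD, n = 2). Its readings of 11.08 and 10.99 in the knockdown were below those of 11.36 and 11.45 in the control. Mrpl16, whose bacterial counterpart lies close to the catalytic centre, had ratios of -0.11 and -0.58, a mean of -0.34 ± 0.34 (SD, n = 2), so its mean rests largely on array 2. The adjusted p in limma was 0.200, 0.198 and 0.310, and the 3 stayed below 0 under median centring, at -0.06, -0.10 and -0.01.

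The 5 large-subunit genes above 0 on both arrays had small ratios after loess. With median centring Mrpl13, Mrpl23, Mrpl44, Mrpl43 and Mrpl48 were at 0.62, 0.53, 0.41, 0.51 and 0.32, where all tested genes had a median of 0.21. Mrpl13, the counterpart of bacterial L13, had ratios of 0.08 and 0.21, a mean of 0.15 ± 0.09 (SD, n = 2), 1.11-fold higher, with an adjusted p of 0.410 in limma, and 0.06 with the processed signals. Mrpl23, a protein at the exit of the tunnel, had ratios of 0.09 and 0.16, a mean of 0.13 ± 0.05 (SD, n = 2) with an adjusted p of 0.447 in limma. Mrpl44, which has a fold like that of RNase III, had ratios of 0.14 and 0.05. Mrpl43 had ratios of 0.05 and 0.07, and Mrpl48 had 0.07 and 0.01. The other probe of Mrpl43 read 0.02 and -0.14, and its mean over probes was 0.00. Mrpl28 came next among the genes of 1 sign at -0.06, and 0.47 under median centring. Mrpl40 had the highest mean of the large subunit, 0.16, but with 0.34 on array 1 and -0.02 on array 2, and its other probes also read higher on array 1 (0.31 and 0.02, 0.22 and -0.12). Mrpl24 had ratios of 0.28 and -0.07.

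The medians of the subunits lay close together. The median of the small subunit minus that of the large was 0.010 on array 1 and -0.006 on array 2. The smallest two-sided p of an exact sign-flip test over 2 arrays is 0.5, so that test cannot call this difference. Counted by where the proteins sit, with Mrps30 and Mrps18a moved to the large subunit and Mrps36, now known as a subunit of the 2-oxoglutarate dehydrogenase complex, left out, the differences were -0.004 and -0.009. Mrps36 itself had ratios of -0.04 and 0.12. Of the 10 genes under an unadjusted p of 0.05 in limma, 1 was of the small and 9 of the large subunit, and this split was not tested.

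**Figure D3:**
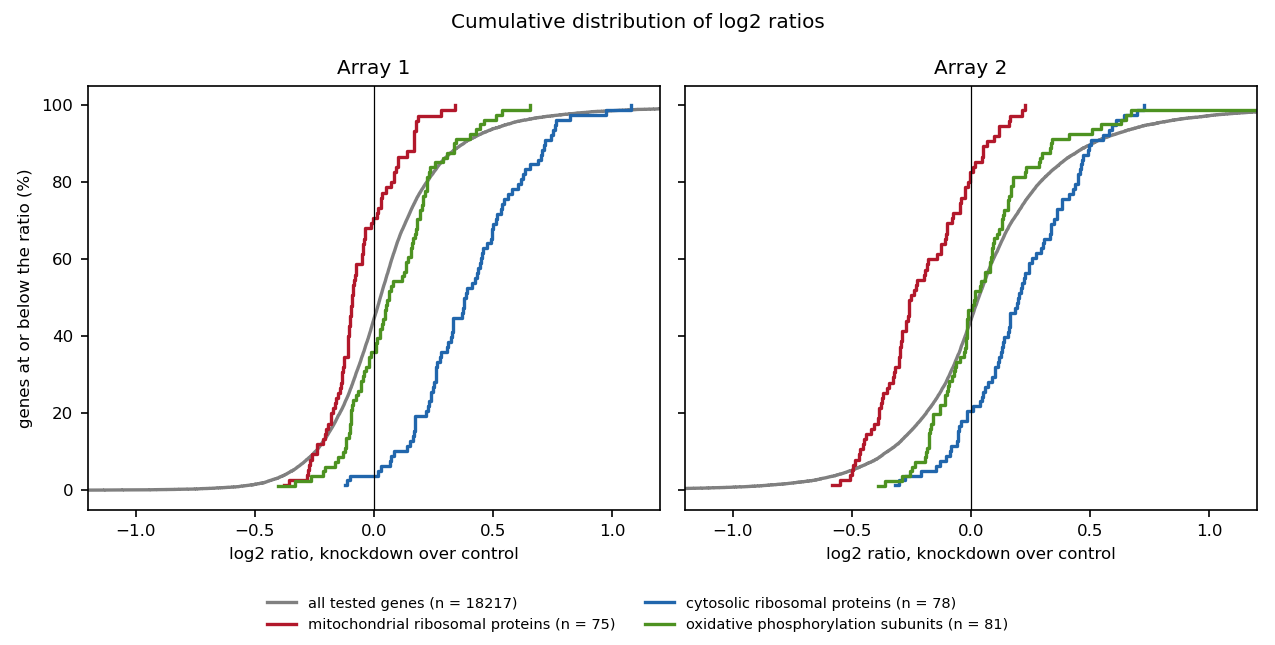
Cumulative percent of genes (y axis) at or below each log2 ratio of knockdown over control (x axis) after loess normalization, on each array. Gene sets are the 75 mitochondrial ribosomal protein genes, the comparison lists and all 18217 tested genes. By their medians of -0.09 (array 1) and -0.25 (array 2), the 75 genes lie to the left of all tested genes at 0.03. Under median centring the 75 genes lay at 0.17 and all tested genes at 0.21.

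Members were also split by the origin of the protein. The mitochondrial ribosome keeps proteins inherited from its bacterial ancestor and has gained many found in mitochondria only. The 48 genes listed with a bacterial counterpart had a median of -0.15 (-0.09 and -0.26 on arrays 1 and 2), with 32 below 0 on both arrays and 4 above. That list includes Mrpl55 (-0.01 and -0.18), whose protein is classed as particular to mitochondria, and the split was not redone without it. The 26 genes listed as particular to mitochondria had a median of -0.16 (-0.07 and -0.23), with 16 below and 4 above. No test was made of the difference. The 75 genes lay on 17 chromosomes, with 10 on chromosome 11 (median -0.19), 8 on chromosome 17 (-0.19), 7 on chromosome 6 (-0.20) and 6 on chromosome 7 (-0.03).

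Counts over all probes were close to those over genes. Of the 119 member probes tested, 73 (61.3%) were below 0 on both arrays and 15 were above 0 on both, after loess normalization. Among 31 genes that had several tested probes, all probe means were below 0 in 18, all were above 0 in 5 and both signs occurred in 8. The widest gap between probe means of 1 gene was 0.48, for Mrpl3, where 3 probes gave -0.21, -0.38 and -0.42 and a dim probe gave 0.06. Mrpl52 followed at 0.40, with a mean of 0.00 for its main probe and 0.40 for another that read 0.12 and 0.68. Mrpl44, above 0 by its brightest probe, had means of -0.28 and -0.10 by the other probes. No gene had probe means more than 0.5 apart.

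Promoters of these genes are known to carry sites for NRF1, for the ETS factor GABP (also called NRF2) and for YY1, which drive many nuclear genes of mitochondria. RefSeq promoter windows of 300 bases, 250 before to 50 after the start, were found for 66 of the 75 genes (72 entries, assembly GRCm38.p6). Each motif was searched on both strands as exact letters. The ETS letters CCGGAAG were in 33.3% of the member windows, against 15.2% of the 14476 windows of tested genes and 8.86% of all 32851 windows. The YY1 letters AAGATGGCG were in 9.72%, against 2.57% and 1.40%. The NRF1 core GCGCATGC was in 11.1%, against 4.52% and 2.71%, and the longer NRF1 palindrome that contains it was in 4.17%, against 1.73% and 0.971%. Of the general promoter elements, CCAAT was in 40.3% of member windows against 37.4% of those of tested genes, the GC box GGGCGG in 51.4% against 57.2%, the E-box CACGTG in 9.72% against 9.31% and TATAAA in 6.94% against 9.10%. A match is a description of the letters, not a site of binding.

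Ratios of members with and without the letters overlapped. The median log2 ratio after loess was -0.20 for the 24 genes with CCGGAAG, 16 of them below 0 on both arrays, and -0.12 for the 42 genes without it, of which 25 were. It was -0.22 for the 7 genes with AAGATGGCG and -0.14 for the 59 without it. It was -0.14 for the 8 genes with GCGCATGC and -0.15 for the 58 without it. No test was made of these differences. The 250 bases before the start are shown, 5′ to 3′ along the gene's strand, for 3 of the lowest small-subunit genes and for Mrpl43. By its brightest probe, but not by its other probe, Mrpl43 was above 0 on both arrays. Only named genes with a single promoter entry and a match to GCGCATGC, CCGGAAG or AAGATGGCG before the start were eligible. Genes without such a match, without an entry or with several entries could therefore not be shown. Capitals mark GCGCATGC in Mrps18b and CCGGAAG in the others, or the reverse complement of either. The windows are chr17:35916441-35916690 (minus strand) for Mrps18b, chr2:130563507-130563756 (plus) for Mrps26, chr5:100798509-100798758 (plus) for Mrps18c and chr19:45006443-45006692 (minus) for Mrpl43, all on GRCm38.p6.
Mrps18b: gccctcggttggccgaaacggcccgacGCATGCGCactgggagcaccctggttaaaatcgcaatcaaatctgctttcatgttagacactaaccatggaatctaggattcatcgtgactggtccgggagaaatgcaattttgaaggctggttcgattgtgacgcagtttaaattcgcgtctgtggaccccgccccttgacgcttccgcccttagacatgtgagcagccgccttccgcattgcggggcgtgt
Mrps26: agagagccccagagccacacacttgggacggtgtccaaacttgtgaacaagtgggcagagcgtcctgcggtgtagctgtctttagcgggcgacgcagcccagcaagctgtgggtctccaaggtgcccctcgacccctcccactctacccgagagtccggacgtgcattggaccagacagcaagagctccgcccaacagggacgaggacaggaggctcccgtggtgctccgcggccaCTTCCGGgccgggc
Mrps18c: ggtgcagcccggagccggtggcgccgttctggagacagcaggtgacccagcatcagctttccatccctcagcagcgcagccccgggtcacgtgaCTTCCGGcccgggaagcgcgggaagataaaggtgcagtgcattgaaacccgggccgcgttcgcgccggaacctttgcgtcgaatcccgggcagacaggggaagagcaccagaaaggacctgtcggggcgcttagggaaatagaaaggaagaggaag
Mrpl43: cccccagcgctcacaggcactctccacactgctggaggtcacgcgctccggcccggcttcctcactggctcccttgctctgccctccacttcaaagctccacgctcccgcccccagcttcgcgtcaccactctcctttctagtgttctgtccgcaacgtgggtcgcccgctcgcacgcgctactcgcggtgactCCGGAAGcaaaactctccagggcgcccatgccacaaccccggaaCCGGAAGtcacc
The ETS letters appear once in Mrps26 and in Mrps18c and at 2 places in Mrpl43, in genes with mean ratios of -0.25, -0.24 and 0.06. Mrps18b also holds them, within the 50 bases after the start that are not shown.

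Other proteins of the same particle that carry different names were tested too. Of 6 such genes, 4 were below 0 on both arrays and 0 were above, with a median of -0.14 after loess but 0.24 under median centring, and none past an adjusted p of 0.05 in limma after loess. An unadjusted p of 0.05 was met by 2 of them, both below 0, against 7.48% of all tested genes. Ptcd3, a small-subunit protein that binds RNA, had ratios of -0.23 and -0.41, with an adjusted p of 0.214 in limma, and a mean of 0.11 under median centring. Gadd45gip1, a large-subunit protein, had ratios of -0.27 and -0.30, with an adjusted p of 0.209 in limma. Dap3, the GTP-binding protein of the small subunit, had -0.17 and 0.03.

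The factors that run and build the mitochondrial ribosome were more mixed. The 13 translation factors had a median of -0.15 after loess and 0.12 under median centring, with 8 below 0 on both arrays and 3 above after loess. The 24 genes of ribosome assembly and ribosomal RNA modification had a median of -0.04, and 0.17 under median centring, with 12 below and 7 above after loess. Together these 37 genes had a median of -0.06 after loess and 0.14 under median centring. The 16 genes of mitochondrial transcription and RNA processing had a median of -0.19, with 8 below and 2 above, and the 10 nuclear regulators a median of -0.14, with 5 below and 0 above, but under median centring these medians were 0.10 and 0.12. After loess no gene of these lists passed an adjusted p of 0.05 in limma. At an unadjusted p of 0.05 there were 1 above and 2 below among translation factors, 2 and 5 among assembly genes, 3 below among transcription genes and 2 below among regulators. Over all tested genes 13.4% were above and 7.48% below.

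Noa1 (listed as 2610024G14Rik), a GTPase of small-subunit assembly, was the lowest of them. Its ratios were -0.36 and -0.63, a mean of -0.49 ± 0.19 (SD, n = 2) with an adjusted p of 0.186 in limma. Mterf3 (listed as Mterfd1), a regulator of mitochondrial transcription and ribosome assembly, had -0.45 and -0.47, a mean of -0.46 ± 0.01 (SD, n = 2) with an adjusted p of 0.180 in limma. Pprc1, a coactivator related to PGC-1alpha, had -0.26 and -0.65. Lrpprc, which stabilises mitochondrial messenger RNA, had -0.41 and -0.44, a mean of -0.43 ± 0.02 (SD, n = 2) with an adjusted p of 0.182 in limma. These 4 stayed below 0 under median centring, at -0.23, -0.20, -0.17 and -0.11.

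At the other end, Gtpbp10, a GTPase of large-subunit assembly, had ratios of 0.02 and 0.70, so its mean of 0.36 ± 0.48 (SD, n = 2) rests on array 2. Mrm1, a methyltransferase of mitochondrial ribosomal RNA, had 0.19 and 0.46, and Mettl15 (listed as Mett5d1), which methylates the small-subunit RNA, had 0.37 and 0.25. Under median centring both passed, at 0.61 and 0.57 with an adjusted p of 0.0381 and 0.0401 in limma. That fit called 17.5% of all tested genes. The mean of Mrm1 over its probes was 0.18. The release factor Mtrf1, read by a dim probe that was not above background in both colours on both arrays, had 0.30 and 0.26. Its mean of 0.28 was -0.03 under median centring but 1.15 from the processed signals and from the deposited table. Of the factors whose motifs were searched, Nrf1 had ratios of 0.00 and 0.09, Gabpa 0.16 and -0.10, Yy1 0.03 and -0.18 and Myc, which binds the E-box, -0.11 and -0.31, with a mean of 0.10 for Myc under median centring. Gabpb1 and Gabpb2, the other GABP genes listed, were below 0 on both arrays, at -0.21 and -0.20 and at -0.24 and -0.25. Under median centring their means were 0.04 and -0.25, and the Gabpb2 probe was dim (log2 intensity 7.6). Tfam, which packages mitochondrial DNA, had 0.07 and -0.13.

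The cytosolic ribosome gave a different picture. The 78 cytosolic ribosomal protein genes had a median of 0.28 (0.38 and 0.20 on arrays 1 and 2), and 0.87 under median centring. After loess 62 (79.5%) were above 0 on both arrays and 3 (3.85%) below, against 40.5% and 29.4% of all tested genes. Probes of the cytosolic list were much brighter, with a median log2 intensity of 17.25 against 13.71 for the mitochondrial list and 10.29 for all tested genes. Of the 78 genes, 7 had a saturated spot. The 152 other genes in the middle 50% of that brightness had a median of 0.20 and 0.79 under median centring. The 81 nuclear-encoded subunits of oxidative phosphorylation, which assemble with the products of mitochondrial ribosomes, had a median of 0.06 (0.06 and 0.02), and 0.49 under median centring. After loess 20 (24.7%) were below 0 on both arrays and 34 (42.0%) above, against 29.4% and 40.5% of all tested genes. The 1418 other genes in the middle 50% of their brightness had a median of -0.03 after loess and 0.39 under median centring. Among the 81 subunits, 10 above 0 and 0 below met an unadjusted p of 0.05 in limma, against 13.4% and 7.48% of all tested genes. The differences between these lists and the mitochondrial ribosomal proteins were not tested.

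Brightness moved with the ratio, so members were also set beside genes of like signal. The 2909 other genes with an intensity in the middle 50% of the members (12.6 to 14.5) had a median of -0.02 after loess (-0.03 and 0.00 on arrays 1 and 2) and 0.32 under median centring (0.35 and 0.27). The 37 members in that window had -0.18 (-0.09 and -0.27) after loess and 0.17 (0.32 and 0.00) under median centring. So the members' median was below that of genes of like brightness on both arrays, only slightly on array 1 and by more on array 2. Within 1 such window the normalizations shift members and other genes by similar amounts. The same order under both is therefore 1 comparison, not 2 separate ones. The share below 0 on both arrays after loess was 67.6% for those members and 38.9% for the others. Across the 75 genes the ratio and the intensity had an r of 0.26 after loess and 0.57 under median centring, and across all tested genes -0.05 and 0.38. Its part in the result was not tested further.

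**Figure D4:**
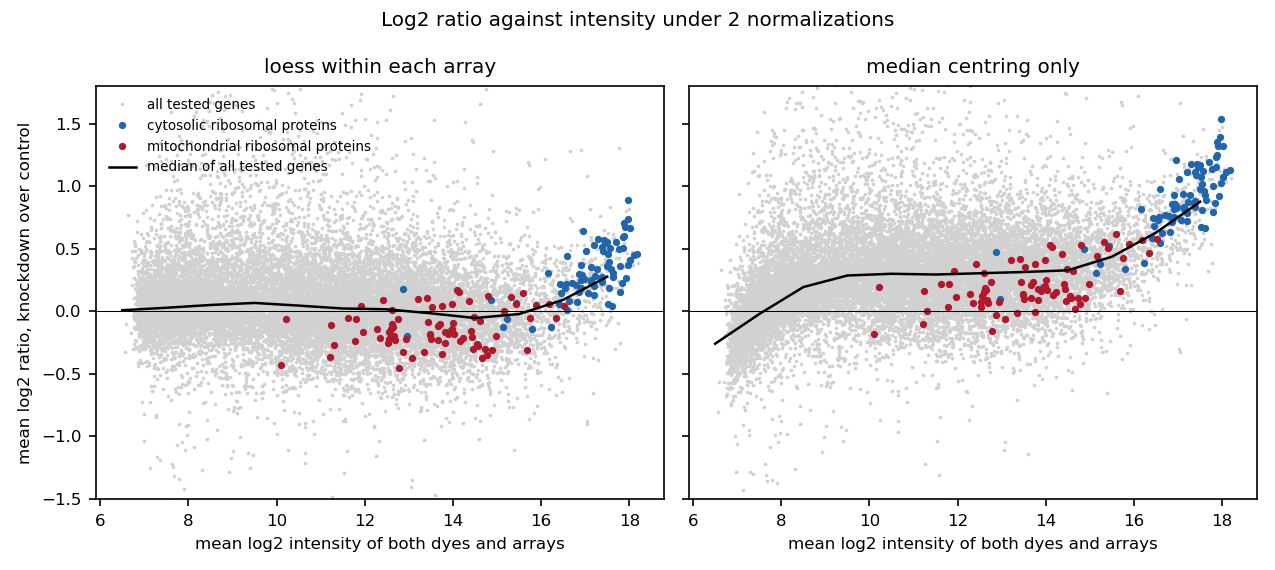
Mean log2 ratio of knockdown over control (y axis) against mean log2 intensity of both dyes and arrays (x axis) after loess normalization (left) and median centring (right), for all tested genes (grey, with their running median as a line), cytosolic ribosomal proteins and mitochondrial ribosomal proteins. The mitochondrial list has a median of -0.16 on the left and 0.17 on the right, where the genes of like brightness lie at -0.02 and 0.32.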

How the data were processed

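Two-colour arrays of 45018 spots were scanned and quantified using Agilent Feature Extraction 9.5.3.1, per the submitters' processing notes. For both dyes, spot intensity (mean) and local background intensity were deposited, and the scanner also wrote a log10 ratio with its p-value, per the file headers. The series' value table held 40477 probes as deposited log2 ratios of Cy5 over Cy3, and 99.9% of values matched the rescaled log10 ratio to within 0.001. It was blank for 1165 and 2004 probes, and how that was decided is not given in the sources used here.

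From the intensity values, normexp (offset 50) and loess (span 0.3, the 1639 control spots at weight 0) were run in limma 3.58.1 under R 4.3.3. Spots with an outlier flag (154 and 237) were dropped, spots of 1 probe averaged, and probes kept if well above background in a colour on each array. The brightest probe stood for a gene. Log2 ratios were fitted with lmFit and eBayes (two-sided), with Benjamini-Hochberg adjustment over 18217 genes. The code was tested on simulated data. Plots and counts used Python 3.11.15, pandas 2.3.3 and matplotlib 3.10.9. Pathway genes listed under older names were matched through the RefSeq gene table.

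The genes named were, in each subunit, the 6 highest and 6 lowest means among genes of 1 sign on both arrays, members with opposite signs of at least 0.4 or with probe means over 0.5 apart (0 and 0 genes), the 4 highest and 4 lowest pathway genes of 1 sign, and Mybbp1a. Genes outside that rule were named after their values were seen. The members and lists were chosen with earlier results of these data known. Alternatives were the processed signals, the deposited table, median centring without loess, no filter or both colours above background, the mean over probes, naming by the reference table, subunits by structure, and leaving out either array.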

Additional observations from a re-analysis of the deposited data

How the results depend on the processing

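The sign of the list's ratios depended on the normalization, and median centring moved the median of all tested genes from 0.03 to 0.21. Under median centring without loess, the median was 0.17 for the members, 0.16 for the small and 0.17 for the large subunit, -0.01 for their difference and 0.14 for translation and assembly factors. There 8 members passed the threshold in limma, in a fit that called 17.5% of all tested genes. On both arrays 2 members were below 0 and 43 above, against 12.2% and 65.3% of all tested genes. Of the genes the naming rule chose, those that turned were Mrps28 (0.08), Mrps34 (0.11), Mrps26 (0.09), Mrps2 (0.03), Mrps18c (0.13), Mrps9 (0.23), Mrps30 (0.23), Mrps15 (0.25), Mrpl11 (0.02), Mrpl12 (0.06), Mrpl28 (0.47) and Mtrf1 (-0.03), and others named in the report turned too. With processed signals the subunit difference was -0.02, the factors' median -0.13 and Mrpl48 -0.06. With the deposited table these were -0.03, -0.13 and -0.06, Mrpl43 was -0.06 and 5 members were above 0 on both arrays. With the mean over probes, the factors' median was -0.09, Mrps9 was 0.01 and Mrpl44 -0.10. Naming by the reference table added Mrpl42 (0.18), Mrpl57 (-0.09) and Mrpl58 (-0.14) and gave a subunit difference of 0.00. The cause of these moves was not tested. Leaving out an array gave medians of -0.25 to -0.09 for the members and for the small subunit, -0.25 to -0.10 for the large, -0.01 to 0.01 for the difference and -0.10 to -0.06 for the factors, with no test on 1 array. No separate paired analysis was made because each array held both groups and its ratio, used in the fit, is already the paired difference. The count of 0 members called held under every other setting run with both arrays.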
